A study of Mus musculus with 8 samples.

Results

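The genes of the high mobility group (HMG) chromatin proteins were followed as 9 members, Hmga1, Hmga2, Hmgn1, Hmgn2, Hmgn3, Hmgn5, Hmgb1, Hmgb2 and Hmgb3. Their regions of open chromatin were all ATAC-seq peaks whose summit lay inside the mm10 span of a member or within 50 kb of it. This gave 121 of 138385 regions, around 9 of 21631 protein-coding genes. The members were chosen by their peak values: whether each library held a peak, and how high the peak ranked in that library's list. Those values are therefore described here and were not tested.

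ATAC-seq maps open chromatin by inserting sequencing adapters with a transposase. It was done on leukemic granulocyte-macrophage progenitors (L-GMPs) sorted from bone marrow of mice with leukemia driven by the MLL-AF9 fusion, to ask how the chromatin protein DEK shapes accessibility. The gate was Lin-, Sca-1-, c-Kit+, CD16/32+ and CD34+, and about 5000 cells entered each reaction. The 8 libraries form 2 sets that differ in genotype labels and in list length. In the Mx1-Cre set, FL 1 and FL 2 were Dekfl/fl, and KO 1 and KO 2 were Dekfl/fl,MX1-Cre, a Cre driven by an interferon-induced promoter in blood cells. In the Tie2-Cre set, FL 3 was Dek+/+, KO 3 was Dekfl/fl;Tie2-Cre, with Cre active in endothelium and the blood lineage from development on, and 4S-A 1 and 4S-A 2 carried alanine for serine at DEK residues 306, 308, 311 and 312. Peak names inside the KO 1 and KO 2 lists carry the numbers 2 and 3, so KO 1 and KO 2 follow the sample titles and may be numbered otherwise by the authors. The labels do not name an inducer of Mx1-Cre, the part of Dek removed, the animals' ages, or whether replicates came from separate mice. All 8 libraries shared the MLL-AF9 fusion. Lists held 51510 to 74026 peaks in the Mx1-Cre set and 91586 to 104605 in the Tie2-Cre set, so set, control genotype and list length cannot be told apart. At the promoters of the progenitor markers in the gate and lineage, 9 of 10 with a listed promoter had a peak in all 8 libraries, Prtn3 being the exception with none. Promoters of B cell markers (0 of 3) and T cell markers (0 of 4) had no peak in any library. Those of erythroid (0 of 4), megakaryocyte (1 of 3), endothelial (0 of 3) and stromal markers (0 of 3) were seldom touched in all 8. Among these, Pf4 had a peak in 8 libraries, Itga2b and Cxcl12 in 7, Kdr in 6, Gp9 and Epor in 5 and Tek in 2. Gata1, Klf1, Hba-a1, Emcn, Pdgfra and Lepr had none.

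HMG proteins are abundant nuclear proteins that bend DNA or loosen its packaging, with little choice of sequence. HMGA proteins hold AT-rich DNA in the minor groove through AT-hooks, HMGN proteins bind the nucleosome itself and compete with linker histone, and HMGB proteins bend DNA with a pair of HMG boxes. In blood, HMGA proteins are known as oncofetal factors that return in leukemia, and HMGB proteins accompany proliferating progenitors.

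The stretches just before the start sites are printed first, since the members differ there in their letters. They are the 250 bases before each start, 5′ to 3′ on the gene's strand, from RefSeq on GRCm38.p6 (the assembly also called mm10). Capitals mark CCAAT boxes on either strand (ATTGG is the box read on the other strand), the short element bound by the factor NF-Y. Hmgb2, Hmgb3, Hmgb1, Hmgn1 and Hmgn5 are shown because their windows hold repeated boxes, and Hmga2 as a window with none and with weak peaks. The windows are chr8:57511593-57511842 (plus strand) for Hmgb2, chrX:71555667-71555916 (plus) for Hmgb3, chr5:149053058-149053307 (minus) for the upstream start of Hmgb1, chr16:96127726-96127975 (minus) for Hmgn1, chrX:109013381-109013630 (minus) for Hmgn5 and chr10:120476470-120476719 (minus) for Hmga2.
Hmgb2: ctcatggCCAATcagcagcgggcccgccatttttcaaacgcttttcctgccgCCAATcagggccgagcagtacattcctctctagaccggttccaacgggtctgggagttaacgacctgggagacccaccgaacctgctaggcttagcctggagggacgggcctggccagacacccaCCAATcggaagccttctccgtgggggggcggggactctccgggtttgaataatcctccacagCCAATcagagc
Hmgb3: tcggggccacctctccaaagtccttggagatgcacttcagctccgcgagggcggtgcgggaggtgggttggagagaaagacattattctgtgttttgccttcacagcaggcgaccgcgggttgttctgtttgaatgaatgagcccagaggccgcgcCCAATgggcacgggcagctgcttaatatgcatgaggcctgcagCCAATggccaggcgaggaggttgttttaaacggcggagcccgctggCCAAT
Hmgb1: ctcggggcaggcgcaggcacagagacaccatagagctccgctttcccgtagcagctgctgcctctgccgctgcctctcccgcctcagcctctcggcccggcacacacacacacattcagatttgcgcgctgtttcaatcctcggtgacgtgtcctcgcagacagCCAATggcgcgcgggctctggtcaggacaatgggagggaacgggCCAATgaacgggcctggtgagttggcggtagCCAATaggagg
Hmgn1: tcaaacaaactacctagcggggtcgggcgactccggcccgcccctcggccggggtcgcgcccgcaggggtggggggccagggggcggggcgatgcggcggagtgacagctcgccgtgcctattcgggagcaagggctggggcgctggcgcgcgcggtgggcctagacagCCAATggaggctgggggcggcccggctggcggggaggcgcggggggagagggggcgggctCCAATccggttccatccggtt
Hmgn5: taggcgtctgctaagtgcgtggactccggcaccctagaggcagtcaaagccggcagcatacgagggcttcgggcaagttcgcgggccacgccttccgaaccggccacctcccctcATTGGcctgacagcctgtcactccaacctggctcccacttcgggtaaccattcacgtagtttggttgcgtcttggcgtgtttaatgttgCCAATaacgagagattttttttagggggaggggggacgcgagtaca
Hmga2: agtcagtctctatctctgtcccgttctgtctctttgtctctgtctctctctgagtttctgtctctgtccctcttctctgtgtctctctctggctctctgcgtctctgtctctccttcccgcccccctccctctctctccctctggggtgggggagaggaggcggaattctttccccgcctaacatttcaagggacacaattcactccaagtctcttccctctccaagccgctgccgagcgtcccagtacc

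Of the 9 members, 8 matched the RefSeq promoter table, with 10 windows because Hmga1 and Hmgb1 have 2 start sites each. Hmgn3 was not matched. CCAAT, searched on both strands, occurred at least 1 time in 5 of the 10 windows and in 34% of all 32619 windows of this length. Each of those 5 windows held at least 2 boxes, against 10.1% of all windows. Hmgb2 held 4 boxes (0.846% of windows hold that many), with first bases at −243, −198, −73 and −11 counted from the start site. Boxes began at −94, −51 and −5 in Hmgb3, and at −86, −42 and −11 in the upstream window of Hmgb1, and 2.78% of windows hold at least 3. Hmgn1 held boxes at −81 and −21, and Hmgn5 at −135 and −46. Boxes and peak rank did not go together in every member: Hmgn2, with 0 boxes, had a mean percentile of 89.4 (the ranking is explained next), and Hmgn1, with 2, one of 82.5. The letters TATAA were found in 0 of 10 windows against 22.9% of all, and CACGTG, which reads the same on both strands, in those of Hmgn2 and the downstream start of Hmgb1 against 6.06%. Each motif was counted on its own, and a match is a description of letters, not a bound site. GC content was 56.4% before Hmga2 and 58% to 78.8% before the other starts, with a median of 52.4% over all windows.

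Hmgb2 had the highest mean percentile at its start of the 8 members with a promoter window. Percentiles are the rank of a peak's −log10 q inside its own library's list, where 100 is the strongest. Ranked by the authors' fold enrichment instead, Hmgb3 (mean 93.8) and Hmgn5 (91.7) stood above Hmgb2 (82.9), so the order of the members depends on the measure. A peak touched the promoter window (250 bases before to 50 after the start) in all 8 libraries for 7 of the 8 members with a window, and for 36.7% of all 26794 genes. Hmga2 was the exception, with a peak in 6 of 8 libraries. Over the 9844 genes touched in all 8 libraries the mean percentile had a median of 90.2, with quartiles of 79.6 and 95.8.

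**Figure D1:**
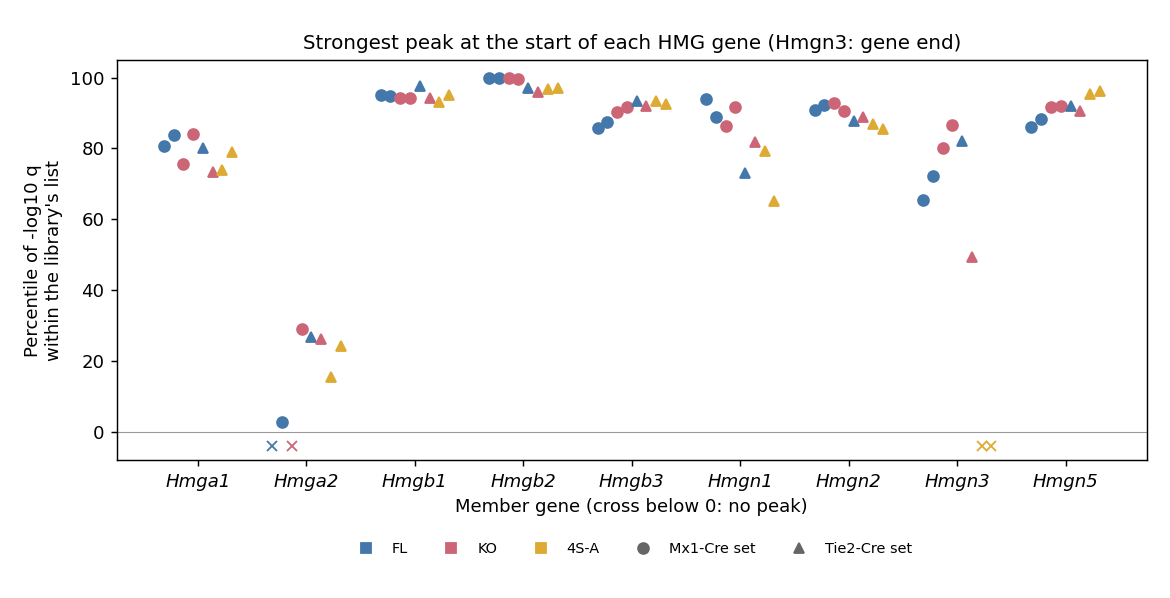
Percentile of −log10 q (vertical axis) of the strongest peak touching a promoter window of each member (horizontal axis), or of the gene end region for Hmgn3; each point is 1 library, colour gives the group, shape the set, and a cross means no peak there. Hmgb2 lies between 95.8 and 99.9, Hmga2 at or below 29.1, and Hmgn3 is missing from both 4S-A libraries.

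The HMGB genes encode DNA-bending proteins with paired HMG boxes, and Hmgb2 is the form most tied to dividing cells. Its start region (chromosome 8, 57511039 to 57512518) had FL percentiles of 99.8, 99.8 and 97.0, KO percentiles of 99.9, 99.7 and 95.8, and 4S-A percentiles of 96.9 and 97.0, each in replicate order. The 4 libraries of the Mx1-Cre set all lay above the 4 of the Tie2-Cre set, while FL and KO overlapped. Its mean percentile, 98.2, was above that of 90.5% of the genes touched in all 8 libraries. By fold it ranked at 95.1 to 98.9 in the Mx1-Cre set and 64.3 to 71.5 in the Tie2-Cre set. Summits lay 53 to 92 bases before the start, inside the stretch printed above and near its box at −73.

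Hmgb3, an X-linked gene known from blood stem and progenitor cells, had its start region (chromosome X, 71555394 to 71556982) at FL percentiles of 85.8, 87.4 and 93.4. The KO libraries gave 90.4, 91.7 and 92.0, and the 4S-A libraries 93.5 and 92.6. FL 1 and FL 2 were the 2 lowest libraries, and FL 3 was above all KO libraries, so the groups overlapped. Of the 4 regions of Hmgb3, 2 were held by all 8 libraries, the other being nearest to Cd99l2. The authors' fold enrichment of the start peak was 12.2 to 14.8 over local background.

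Hmgb1, the most abundant HMGB protein and also a danger signal when released from cells, has 2 listed starts, each with a peak in all 8 libraries. The upstream start (chromosome 5, 149052623 to 149053715) had FL percentiles of 95.2, 94.8 and 97.5, KO percentiles of 94.2 in each library, and 4S-A percentiles of 93.1 and 95.1. All KO libraries lay below all FL libraries, with a KO minus FL difference of −0.792 between the Mx1-Cre means and −3.24 for the Tie2-Cre pair. The downstream start (149051366 to 149052458) lay the other way, with FL percentiles of 71.4, 63.6 and 74.5, KO percentiles of 79.0, 79.0 and 78.5, and 4S-A percentiles of 74.1 and 72.6. Every KO library was above every FL library there. In lists cut to an equal length of 51510 peaks the upstream order held, while downstream FL 1 (71.4) passed KO 2 (69.8) and KO 3 (61.1). Ranked by fold, neither start kept its order: upstream KO 1 (87.3) passed FL 1 (86.8), and downstream KO 3 (39.3) fell below FL 1 (50.4).

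HMGN proteins bind nucleosomes, and Hmgn1 and Hmgn2 are their broadly expressed forms. The Hmgn1 start region (chromosome 16, 96127207 to 96128321) had FL percentiles of 94.0, 88.7 and 72.9, KO percentiles of 86.3, 91.8 and 81.8, and 4S-A percentiles of 79.2 and 65.2. FL and KO overlapped, and 4S-A 2 was the lowest library. The Mx1-Cre set lay wholly above the Tie2-Cre set, with means of 90.2 and 74.8, and of 88.8 and 53.2 in equal-length lists.

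The Hmgn2 start region (chromosome 4, 133967110 to 133968911) split in the same direction, with FL percentiles of 90.8, 92.4 and 87.7, KO percentiles of 92.8, 90.5 and 88.9, and 4S-A percentiles of 87.0 and 85.5. KO and FL overlapped, and the 2 4S-A libraries were the lowest of the 8. By fold the region ranked lower, at 40.8 to 47.3 in the Tie2-Cre set and 62.7 to 76.9 in the Mx1-Cre set. Hmgn5, an X-linked HMGN gene with a long acidic tail, had its start region (chromosome X, 109012430 to 109014102) at FL percentiles of 86.1, 88.3 and 91.9, KO percentiles of 91.7, 92.0 and 90.6, and 4S-A percentiles of 95.4 and 96.2. The 4S-A libraries were the 2 highest of the 8. In equal-length lists 4S-A 2 (93.0) was still the highest, and 4S-A 1 (90.6) came just below KO 1 (90.9). Ranked by fold they were not the highest, as KO 1 (98.4), FL 2 (96.2) and KO 2 (94.9) stood above 4S-A 1 (90.6) and 4S-A 2 (92.6).

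Over all 37 member regions held by the 8 libraries, 4 had every Mx1-Cre library above every Tie2-Cre library, against a background of 3.69%. They were the starts of Hmgb2, Hmgn1 and Hmgn2, and a region 2114 bp from Hmga1 (chromosome 17, 27564600 to 27566067). Its summit lay 58 bp outside AI413582. The reverse order was seen in 14 of the 37, against 40.5% of all regions. Longer lists add weak peaks, and how much of either order comes from that was not tested.

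By mean percentile over the libraries with a peak, at each member's strongest start, the HMGA genes ranked lowest of the members with a promoter window. In the Tie2-Cre set alone, however, the mean at the Hmga1 start (76.6) lay above that at the Hmgn1 start (74.8). Hmga1, expressed in many proliferating cells, had a broad region reaching its start (chromosome 17, 27555000 to 27557030) at FL percentiles of 80.7, 83.7 and 80.2, KO percentiles of 75.6, 84.1 and 73.2, and 4S-A percentiles of 73.8 and 79.0. The groups overlapped, with the highest and the lowest of the 8 both in KO. By fold the same peaks ranked at 5.85 to 34.8. Its peaks were 1866 to 2021 bases wide, against a median of 771 at promoters of genes touched in all 8 libraries, and their summits lay at −1267 to −567 counted from the upstream start. Its mean percentile exceeded that of 23.8% of those genes, against 29.8% for Hmgn1, 47.2% for Hmgn2, 52.7% for Hmgb3, 55.2% for Hmgn5 and 69.6% for Hmgb1.

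Hmga2, an oncofetal gene that is low in most adult cells, had little signal at its start and more inside and around the gene. Just inside the start (chromosome 10, 120475689 to 120476511) FL 2 ranked at 2.71, FL 3 at 12.5, KO 3 at 3.48, 4S-A 1 at 24.1 and 4S-A 2 at 10.7. Just before it (120476626 to 120477384) FL 1 ranked at 4.32, KO 2 at 29.1, FL 3 at 26.8, KO 3 at 26.4, 4S-A 1 at 15.7 and 4S-A 2 at 24.3. KO 1 held neither region, and no percentile there passed 29.1.

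The strongest Hmga2 region lay inside the gene, 120446185 to 120447218. Its FL percentiles were 79.5, 80.5 and 86.8, its KO percentiles 73.7, 74.5 and 71.7, and its 4S-A percentiles 87.8 and 82.0. Every KO library was below every FL library, and both 4S-A libraries were above every KO library. The KO minus FL difference was −5.95 between the Mx1-Cre means and −15.0 for the Tie2-Cre pair. In equal-length lists the 3 FL values were 79.5, 79.3 and 76.5 and the 3 KO values 71.2, 63.4 and 49.0. Ranked by fold the groups overlapped, with 90.2, 85.8 and 99.0 in FL and 80.7, 87.4 and 90.5 in KO. A second region inside the gene (120365465 to 120366595) ranged from 59.2 in KO 1 to 71.8 in KO 2, so that KO held both ends of the range.

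The flanks of Hmga2 held regions of differing order. A region with its summit 46630 bp beyond the gene (120522721 to 120523545) had no peak in FL 1, 2.05 in FL 2 and 33.6 in FL 3. Its KO percentiles were 41.5, 51.4 and 61.0, and its 4S-A percentiles 74.3 and 64.7. All 3 KO libraries were above all FL libraries, and both 4S-A libraries were above all others. Ranked by fold the same order was seen, with 4.88 and 49.9 in FL 2 and FL 3, 53.5 to 80.1 in KO, and 94.2 and 85.2 in 4S-A. In equal-length lists it had no peak in any FL library and kept KO percentiles of 36.1, 30.2 and 29.6 and 4S-A percentiles of 47.7 and 35.0. The strongest flank region lay on the other side, 37248 bp from the gene (120323525 to 120324504), with FL percentiles of 49.4, 71.9 and 78.1, KO percentiles of 50.8, 64.2 and 86.6, and 4S-A percentiles of 82.4 and 77.1. FL and KO overlapped there, with KO minus FL differences of −3.14 and 8.49 in the 2 sets. Beside it, 120325131 to 120325448 was held by the Tie2-Cre set only, by FL 3 at 11.2, KO 3 at 38.5, 4S-A 1 at 41.4 and 4S-A 2 at 27.8.

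Just outside the 50 kb window, 62481 bp from the other end of Hmga2, lay a region (120298461 to 120298946) held by no FL library. It was held by KO 1, KO 2 and KO 3 at 24.3, 16.2 and 13.2 and by 4S-A 1 and 4S-A 2 at 44.3 and 18.9. Of all regions held by every KO library, 0.754% were held by no FL library. The peaks were weak, and equal-length values were not taken for this region. At 65369 bp from the start side, another (120541665 to 120542167) was held by KO 3 at 19.7 and 4S-A at 48.1 and 31.7. At 76872 bp a further region (120552474 to 120553446) was highest in FL 2, at 34.4, with FL 3 at 3.99, KO 2 at 9.05, KO 3 at 7.04 and the 4S-A libraries at 9.15 and 8.49. Of the 22 regions of Hmga2, 9 were held by 1 library only, and 4 by all 8.

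**Figure D2:**
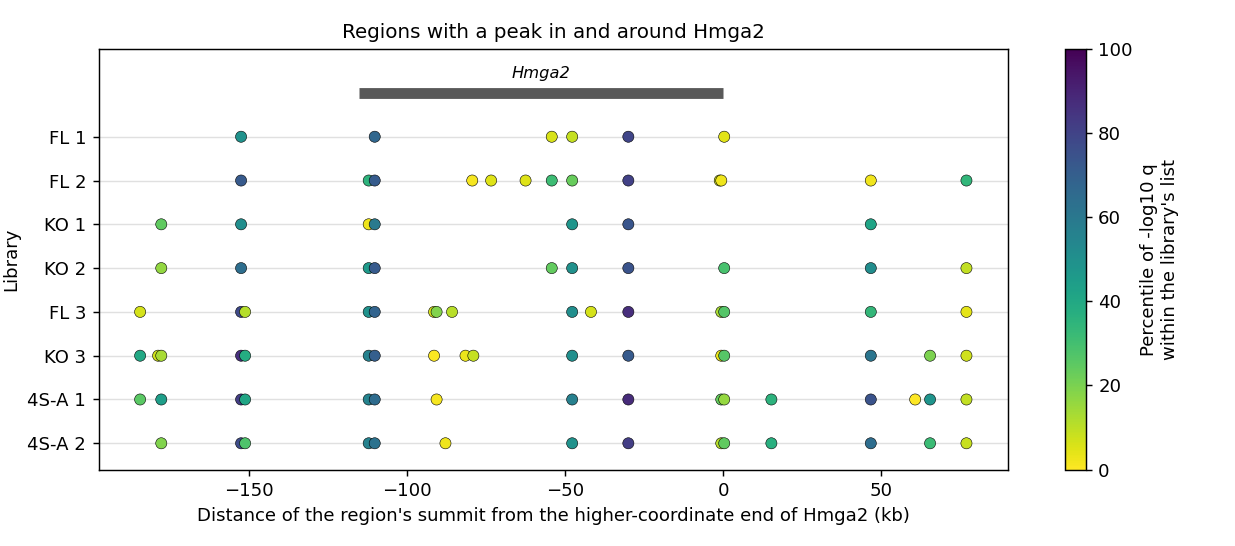
Regions with a peak in and around Hmga2, by distance of the summit in kb from the end of the gene at the higher coordinate (horizontal axis, the start of this minus-strand gene) and by library (rows); colour is the percentile of −log10 q and the bar is the gene. At 46.6 kb the dots are darker in KO and 4S-A than in FL 2 and FL 3, and FL 1 has none; the start at 0 has only pale dots.

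Hmgn3, an HMGN form with tissue-restricted expression, stood apart from the other members in the 4S-A libraries. Its gene end region (chromosome 9, 83145659 to 83146828) lies 722 bp inside the end of the gene. Its FL percentiles were 65.4, 72.3 and 82.2 and its KO percentiles 80.0, 86.7 and 49.3, and neither 4S-A 1 nor 4S-A 2 held a peak. In the Mx1-Cre set both KO libraries were above both FL libraries, and in the Tie2-Cre pair KO 3 was below FL 3. Equal-length lists gave 68.3 in FL 3 and 8.38 in KO 3.

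A fall from FL 3 to KO 3 of at least this size, 32.9 percentiles, was seen in 1.62% of the 76644 regions held by both. Absence from both 4S-A libraries was shared by 467 of 34313 regions held by all 6 FL and KO libraries (1.36%), of which 19 lay at a gene end. Among the 467 the Hmgn3 region ranked 4 by mean percentile, and it ranked 1 among the 19. Of 16250 regions with a mean at least as high (72.6), 4 were missing from both 4S-A libraries, the Hmgn3 region included. The region was picked out by its presence and percentiles, and these rules use its own values. The ranks and counts therefore describe it and are no test of how unusual it is. The gene end regions most like it, by root mean square distance over the 6 libraries, were nearest to Cxxc5 (10.3 percentiles), Slc34a3 (19.4), LOC108167368 (22.9), Fgf23 (25.8) and Tmsb10 (31.9).

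The other regions of Hmgn3 were missing too. Inside the gene, 83112094 to 83112634 had FL percentiles of 18.2, 4.84 and 33.6 and ranked at 27.8 in KO 1 and 34.7 in KO 2. Its neighbour 83113789 to 83114459 was held by the same libraries at 41.9, 29.6 and 13.6 in FL and 36.9 and 62.6 in KO. KO 3 and both 4S-A libraries held neither. The remaining 3 regions were held only by KO 2 or by KO 2 and FL 3, at 2.11 to 33.9. Within 50 kb, FL 3 held 5 regions of Hmgn3, KO 3 held 1 and the 4S-A libraries 0. In equal-length lists FL 3 and KO 3 each kept a peak at the gene end region only. Of 15235 genes with at least 5 regions in FL 3, 3 had none in either 4S-A library (0.0197%): Hmgn3, Adgrb3 and Lrrtm4. Adgrb3 and Lrrtm4 had none in KO 3 either. Of the 7 members with that many FL 3 regions, Hmgn3 was the 1 with none in the 4S-A libraries. This count was chosen after the values of Hmgn3 had been seen.

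Beyond the gene, peaks were few in most libraries. From the end of Phip to the start of Lca5, 409686 bp, 17 regions were found. FL 1, FL 2 and KO 1 held 4 each, KO 2 held 8 and FL 3 held 13. KO 3, 4S-A 1 and 4S-A 2 held 1, 1 and 0. In FL 1, FL 2 and KO 1, 3 of the 4 lay inside Hmgn3 and only 1 beyond it. Beyond the gene these libraries thus differed little from KO 3 and 4S-A, and most peaks were in FL 3 and KO 2. Phip, the neighbour on one side, encodes a bromodomain protein. Of the 17 regions in its span FL 3 held 15, KO 3 held 1, and the 4S-A libraries 7 and 6. FL 1, KO 1 and KO 2 also held 1 each and FL 2 held 2, so FL 3 alone held most of them. On the other side a region inside Lca5, a gene of cilia, was held by all 8 libraries. It lay near the end of the gene but more than 1 kb from it. FL 3 ranked it at 87.7, KO 3 at 56.6, 4S-A 1 at 83.1 and 4S-A 2 at 76.8. From Lca5 to Sh3bgrl2, FL 3 held 2 of 4 regions, KO 3 held 1 and each 4S-A library 2. Farther out, from Elovl4 to Bckdhb, the order in the Tie2-Cre set was the reverse of that from Phip to Lca5. There 9 of 17 regions were in FL 3, 11 in KO 3 and 15 in each 4S-A library. FL 1, FL 2, KO 1 and KO 2 held 5, 3, 4 and 4 of these 17. FL 3 alone held the region nearest outside the window (83059146 to 83059567, at 45.8), 50683 bp from Hmgn3. The lists hold peak calls only: read coverage and copy number over this stretch were not analysed here, so a missing call does not show closed chromatin.

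**Figure D3:**
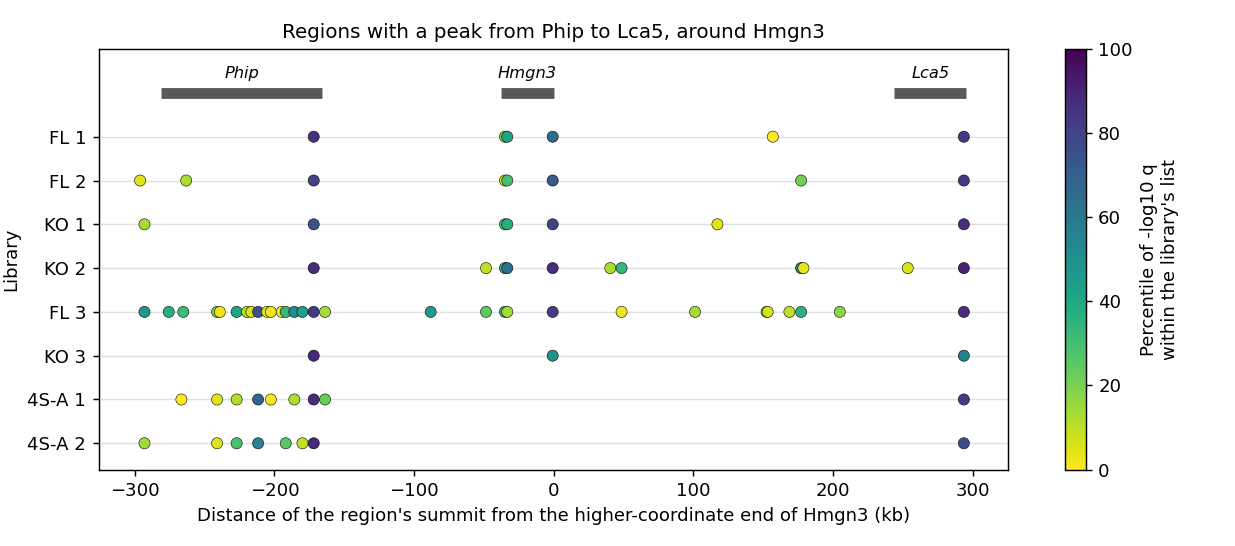
Regions with a peak from Phip to Lca5, by distance of the summit in kb from the end of Hmgn3 at the higher coordinate (horizontal axis) and by library (rows); colour is the percentile of −log10 q and bars are genes. All 8 libraries have a dot near the ends of Phip and Lca5. The stretch between them is empty in 4S-A 2 and holds 1 region in KO 3 and in 4S-A 1. It holds 4 each in FL 1, FL 2 and KO 1, 8 in KO 2 and 13 in FL 3.

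Presence over all members is given next, with the share of all regions called by the same rule. Of the 121 regions, 37 were held by all 8 libraries (30.6%, background 24.1%). The FL libraries held 51, 56 and 88 of them, the KO libraries 55, 69 and 88, and the 4S-A libraries 81 and 77. The FL and KO libraries held 7.12 to 9.24 percentage points more of the member regions than of all regions, and for the 4S-A libraries the difference was −6.42 and −2.31 points. Cut to equal length, each library held 48 to 55 of them, and each of the 8 held a larger share of these than of all regions. For 4S-A 1 the 2 shares were 43.0% and 36.7%, and for 4S-A 2 they were 40.5% and 36.6%. The lower 4S-A share was thus not seen at equal length.

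**Figure D4:**
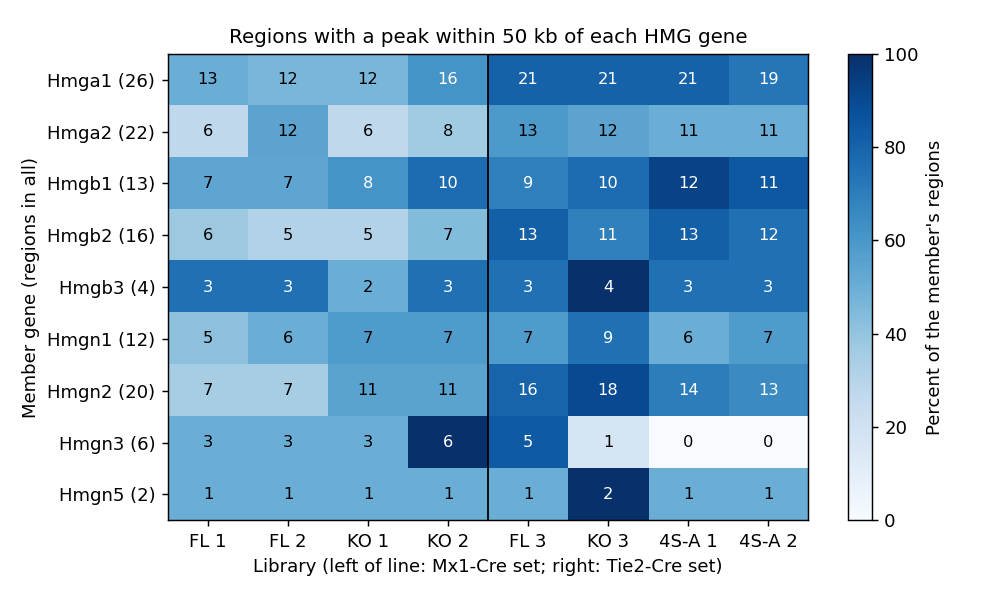
Number of regions with a peak (printed in each cell) within 50 kb of each member (rows, with the member's regions in all) in each library (columns); shade is the percent of the member's regions. Hmgn3 falls from 5 in FL 3 to 1 in KO 3 and 0 in both 4S-A libraries, while most other members hold more regions to the right of the line, where lists are longer.

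No member region was lost or gained in the knockout over all 6 libraries. Lost means held by every FL library and by no KO library, and gained the reverse. The counts were 0 of 43 lost (background 0.214%) and 0 of 48 gained (background 0.754%). At those shares fewer than 1 call would be made among so few regions, so the zeros are no result about the members. In equal-length lists the Hmga2 flank region 120522721 to 120523545 was gained, 1 of 40, where 0.706% of all regions were. Inside the Mx1-Cre set 0 of 44 were lost (background 2.07%) and 2 of 50 gained (background 13.5%). The gained regions were 10449 bp from Hmgn1 (chromosome 16, 96110747 to 96111360) and inside Lin28a (chromosome 4, 134017383 to 134017718). FL 3, the remaining control, held both, at 47.0 and 35.5. In that set the gain became 5, 6, 15 and 7 regions, and the loss 8, 1, 0 and 3, when FL 1, FL 2, KO 1 and KO 2 were left out in turn. Over all 6 libraries, leaving out FL 3 gave 2 gained regions, leaving out KO 1 gave 1, and leaving out KO 2 gave 1 gained and 1 lost. Leaving out a library loosens these rules for all regions, and no share of all regions was counted there. Between KO 3 and FL 3, 15 of 88 were lost (background 14.4%) and 15 of 88 gained (background 15.3%), with 1 library on each side.

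Among 39 member regions held by all 6 FL and KO libraries, 3 had every KO percentile above every FL percentile (background 3.86%) and 2 had the reverse order (background 0.965%). The 3 were the downstream start of Hmgb1, a region 3905 bp from Hmga1 (chromosome 17, 27552483 to 27553237), and one 33170 bp from Hmgn2 (chromosome 4, 133931395 to 133931881). The Hmga1 region had FL percentiles of 28.8, 35.3 and 48.2 and KO percentiles of 56.2, 66.6 and 49.9, a difference of 29.4 between the Mx1-Cre means and of 1.67 for the Tie2-Cre pair. The Hmgn2 region had FL percentiles of 39.6, 41.1 and 54.5 and KO percentiles of 58.9, 59.2 and 61.2. Both differences were larger with Mx1-Cre than in the Tie2-Cre pair. The 2 in reverse order were the strongest Hmga2 region and the upstream start of Hmgb1. In equal-length lists the last 2 kept their order and the other 3 did not. Ranked by fold, 2 of the 39 regions had no overlap, and of the 5 only the Hmga1 region kept its order, at percentiles of 0.132 to 6.42. Without FL 3 the 5 regions without overlap became 16, and without FL 2 or KO 2 they became 8. No share of all regions was counted for these smaller sets of libraries.

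In the 4S-A comparison 14 of 88 member regions of FL 3 were lost, held by neither 4S-A library (15.9%, background 11.7%). Hmgn3 accounted for 5 of the 14, and without its regions 9 of 83 were lost (10.8%). KO 3 held 7 of the 14. After the Hmgn3 end the strongest lost region lay inside Lin28a, 37739 bp from Hmgn2 (chromosome 4, 134005565 to 134006196). Lin28a encodes an RNA-binding protein that blocks maturation of let-7 microRNAs, which repress Hmga2. The region had FL percentiles of 59.0, 63.6 and 55.9 and KO percentiles of 69.3, 80.1 and 22.0. As at Hmgn3, all 6 FL and KO libraries held it, KO 3 lowest, and neither 4S-A library did. The other 8 lost regions were 2 near Hmga1, 3 inside Hmga2, and 1 each near Hmgn1, Hmgb2 and, inside Lin28a, Hmgn2, at 5.53 to 35.5 in FL 3.

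FL 3 lacked 6 of the 72 member regions that both 4S-A libraries held (8.33%, background 16.4%). The strongest lay inside Galnt7, a gene of O-linked glycosylation, 47943 bp from Hmgb2 (chromosome 8, 57563628 to 57564285), at 82.3 and 75.2, with no peak in any other library. Another (chromosome 10, 120491510 to 120491978), 15203 bp from the start of Hmga2, was held at 35.9 and 37.0 by the same 2 libraries only. The remaining 4, near Hmga1, Hmgn1, Hmgn2 and Hmgb1, ranked at 1.36 to 47.5. With FL 3 as the only control, no replicate checks that side of the comparison. Regions held by the 4 Tie2-Cre libraries and by none of the others numbered 6 of 61 (background 15.9%), 2 each near Hmga1 and Hmgb2 and 1 each near Hmga2 and Hmgn2.

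Other genes of chromatin architecture are given by counts. The 23 other HMG box genes had 405 regions within 50 kb, 124 of them in all 8 libraries, with 0 of 135 lost and 1 of 163 gained in KO (background 0.214% and 0.754%), near Tox2 (chromosome 2, 163298909 to 163299766). In 4S-A 32 of 278 were lost (11.5%, background 11.7%) and 25 of 249 gained (10.04%, background 16.4%). Linker histone genes, whose proteins compete with HMGN and HMGB for the nucleosome, had 103 regions for 7 genes, 43 of them in all 8 libraries, with 0 of 47 lost and 0 of 51 gained in KO, and with 5 of 80 lost (6.25%) and 7 of 78 gained (8.97%) in 4S-A. A region near H1f1 and H1f2 (chromosome 13, 23716247 to 23716663) was held by all 6 FL and KO libraries at 36.5 to 68.1 and by neither 4S-A library, the same presence as at the Hmgn3 end. The 19 other architectural genes, such as Ctcf and the cohesin genes, had 325 regions, 99 of them in all 8 libraries, with 0 of 108 lost and 0 of 126 gained in KO, and with 14 of 231 lost (6.06%) and 19 of 219 gained (8.68%) in 4S-A, against the same backgrounds. Promoter windows were touched in all 8 libraries for 15 of 18 HMG box genes, 4 of 7 linker histone genes and 15 of 15 architectural genes, beside 7 of 8 members.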

How the data were processed

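ATAC-seq peak lists of 8 L-GMP libraries were used. MACS2, featureCounts, Picard, Bowtie2 2.2.9 and Trim Galore 0.4.4 are named with mm10, per the submitters' processing notes, without roles or parameters. Each library has its own deposited narrowPeak list, hence its own peak calls. Each list holds a score, the authors' whole-number form of the −log10 q. It also holds the authors' fold enrichment, a ratio at the summit over local background, and the deposited −log10 p, −log10 q and summit position. None is scaled between libraries, and read depth is unknown, so values were ranked inside each list as percentiles of −log10 q.

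Peaks on the 19 autosomes and X were merged into regions where they shared at least 1 bp (Python 3.11.15, pandas 2.3.3, NumPy 2.4.6). Gene spans, starts and sequences came from RefSeq tables of GRCm38.p6. Gene end regions have a summit at most 1 kb from a gene's first or last base. Members and lists were chosen with earlier results of these data known, so no test was run and shares are set beside those of all regions. Named were the members, their gene end regions, regions lost or gained, and neighbouring genes nearer to these. Other regions of Hmga1, Hmga2, Hmgn2 and Lca5 were named after their values were seen. The stretches counted around Hmgn3 were not planned beforehand, and no share over other stretches was counted. Alternatives were lists cut to equal length (the 51510 strongest), a −log10 q of at least 2, peaks covering 50% of a region, windows of 10 and 100 kb, ranking by fold, and leaving out each library. The merging and calling steps were tested on simulated data.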

Additional observations from a re-analysis of the deposited data

Results flagged for a closer look

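At 3 of the 9 start or gene end regions compared between the sets, every knockout library moved one way in the Mx1-Cre set and the other way in the Tie2-Cre pair. At the Hmgn3 gene end the KO minus FL difference was 14.5 percentiles with Mx1-Cre and −32.9 with Tie2-Cre, 47.4 apart, and 11.6 and −59.9 in equal-length lists. At the Hmgn5 start the differences were 4.61 and −1.30, 5.91 apart, and 2.86 and −2.58 in equal-length lists. At the Hmgb3 start they were 4.43 and −1.36, 5.80 apart, and 2.58 and −2.65 in equal-length lists. Ranked by fold, KO 2 (94.9) fell below FL 2 (96.2) at the Hmgn5 start, while the orders at Hmgn3 and Hmgb3 held. The Tie2-Cre pair holds 1 library of each group, and the difference between the sets was not tested. The share of all regions called by this rule was not counted, so 3 of 9 is no result about the members.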

How the results depend on the processing

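No paired analysis was possible because the counts come from no test. A −log10 q of at least 2 kept all 8 counts within 1.5 times. In equal-length lists 1 region was gained in KO, 3 were lost and 1 gained inside the Mx1-Cre set, 7 were lost in 4S-A, and 2 had KO and FL percentiles without overlap. There 13.9% of all regions were lost in 4S-A, against 7 of 55 member regions. With peaks covering 50% of a region, 1 was lost and 5 were gained inside the Mx1-Cre set, 14 were held by all 8 libraries and 3 had no overlap. With a 10 kb window 0 were gained inside the Mx1-Cre set, 7 were lost and 1 gained in 4S-A, and 14 were held by all 8. With a 100 kb window 1 was gained in KO, 7 were gained inside the Mx1-Cre set, 18 were gained in 4S-A and 64 were held by all 8. Ranking by fold moved 53 of 81 library percentiles of the members' start, gene end and Hmga2 flank regions by more than 1 SD of the group (or with no SD to set them against), and equal length moved 40 of 68. With fold ranking, a setting added after seeing the data for this count, 2 regions had no overlap. Leaving out the Hmgn3 regions, chosen after seeing the data, gave 9 lost in 4S-A. Fewer or more regions enter under other windows, and the cause of the other changes was not tested. Among these settings, shares of all regions were counted only for equal-length lists, for regions lost or gained in KO across both sets or in 4S-A.

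Leaving out each library in turn gave 0 to 1 region lost and 0 to 2 gained in KO, 0 to 8 lost and 5 to 15 gained inside the Mx1-Cre set, 16 to 20 lost and 9 gained in 4S-A, 37 to 41 held by all libraries left, and 6 to 16 without overlap. For these counts no share of all regions was taken, and leaving out a library loosens each rule for all regions. Read depth and expression were not analysed here, and a missing peak is a peak not called, not closed chromatin.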
